A study of Saccharomyces cerevisiae with 27 samples.

Results

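The genes described here are 10 genes of alanine, serine and glycine metabolism in budding yeast, Saccharomyces cerevisiae, chosen by name as the metabolism of the amino acids that alanyl-tRNA synthetase (AlaRS) charges or mischarges. They are ALT1 (YLR089C), ALT2 (YDR111C), SER3 (YER081W), SER33 (YIL074C), SER1 (YOR184W), SER2 (YGR208W), SHM1 (YBR263W), SHM2 (YLR058C), GLY1 (YEL046C) and CHA1 (YCL064C). All 10 of them were among the 7122 gene IDs of the deposited tables and among the 6386 genes that had enough counts to be tested. The study compared yeast that lives on one of 3 forms of AlaRS, and each form was sampled at 3 times with 3 libraries of poly(A) RNA per group, 27 libraries in all. The strains were C719A, with a mutation of the editing site of AlaRS, G906D, with a mutation that lowers aminoacylation, and wild type (WT). All were derived from BY4741 and are described as lacking the chromosomal ALA1 gene and carrying the named ALA1 allele on a single-copy plasmid, except that the strain list of the study gives the WT as BY4741 alone. Log-phase cells in rich medium (YPD, 30 °C) were collected at that point (0 h) or after a shift to 37 °C for 1 h or 2 h. The study describes the 3 libraries of a group as biological replicates, and whether each strain was 1 clone is not given in the sources used here. A bulk library cannot tell less of a transcript per cell from fewer cells that make it.

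AlaRS joins alanine to its tRNA, and it can by mistake attach serine or glycine. A separate editing site in AlaRS and the free-standing editing protein AlaX remove the wrong amino acid before it reaches the ribosome. Yeast makes serine from an intermediate of glycolysis in a short pathway, turns serine into glycine and back with serine hydroxymethyltransferase, makes more glycine from threonine, and makes alanine from pyruvate. Serine that is taken up from rich medium can also be broken down, and the enzyme that does this is induced by serine and threonine.

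The total count per library was 14471528 to 23057641. No library was a copy of another. ALA1 itself was measured at 444.9 to 1751 FPKM, and at 2 h its log2 fold change against WT was 1.43 ± 0.16 (adjusted p = 6.11e-08) in C719A and 0.21 ± 0.16 (adjusted p = 0.234) in G906D. The G906D value became 0.38 (adjusted p = 0.0497) without WT library B. A read count over ALA1 does not show which allele was read. Of the markers of BY4741, URA3 and MET17, which it lacks, were at 0 counts in all 27 libraries, and HIS3, which is deleted in part in it, had 535 to 2049 counts. LEU2, which BY4741 also lacks and which the pRS315 plasmids of the ALA1 alleles carry, had 5101 to 66335 counts over the 27 libraries. LEU2 was read in all 9 WT libraries, at 5101 to 12680 counts, although the strain list gives the WT as BY4741 alone. BY4741 has mating type a, yet the a-factor receptor gene STE3, which is a marker of the opposite mating type, was above the alpha-factor receptor gene STE2 in all 27 libraries, by 2.13 to 41.4 times in FPKM. In G906D the genes of chromosome VII as a whole were higher than in WT, which concerns SER2 alone among the 10 genes.

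Between genes, levels were compared per gene length, in FPKM, which the authors made from the counts. Over the 27 libraries the median FPKM was highest for CHA1 (366.2), followed by SER1 (268.1), GLY1 (224.3), SHM2 (205.6), ALT1 (202.4), SHM1 (149.9), SER3 (71.2), SER33 (54.0), ALT2 (45.3) and SER2 (43.8). The order changed with strain and time. In WT at 2 h CHA1 was first at 1194 ± 114 FPKM (SD, n = 3) and stood clear of ALT1, at 469.8 ± 19.5 FPKM, whereas ALT1 and SHM2, SHM2 and SER1, and SER1 and GLY1 had ranges that overlapped. In C719A at 2 h GLY1 was first at 372 ± 10.2 FPKM, with a range that overlapped that of SER1, and CHA1 was the fourth at 259 ± 16.5 FPKM. In G906D at 2 h SHM2 was first at 549 ± 257 FPKM with CHA1 next at 466 ± 59.8 FPKM, and their ranges overlapped. Within a gene, all values below are CPM, the count relative to the scaled library total, after scaling of the libraries by the TMM method, and fold changes are given on the log2 scale with their standard error.

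**Figure D1:**
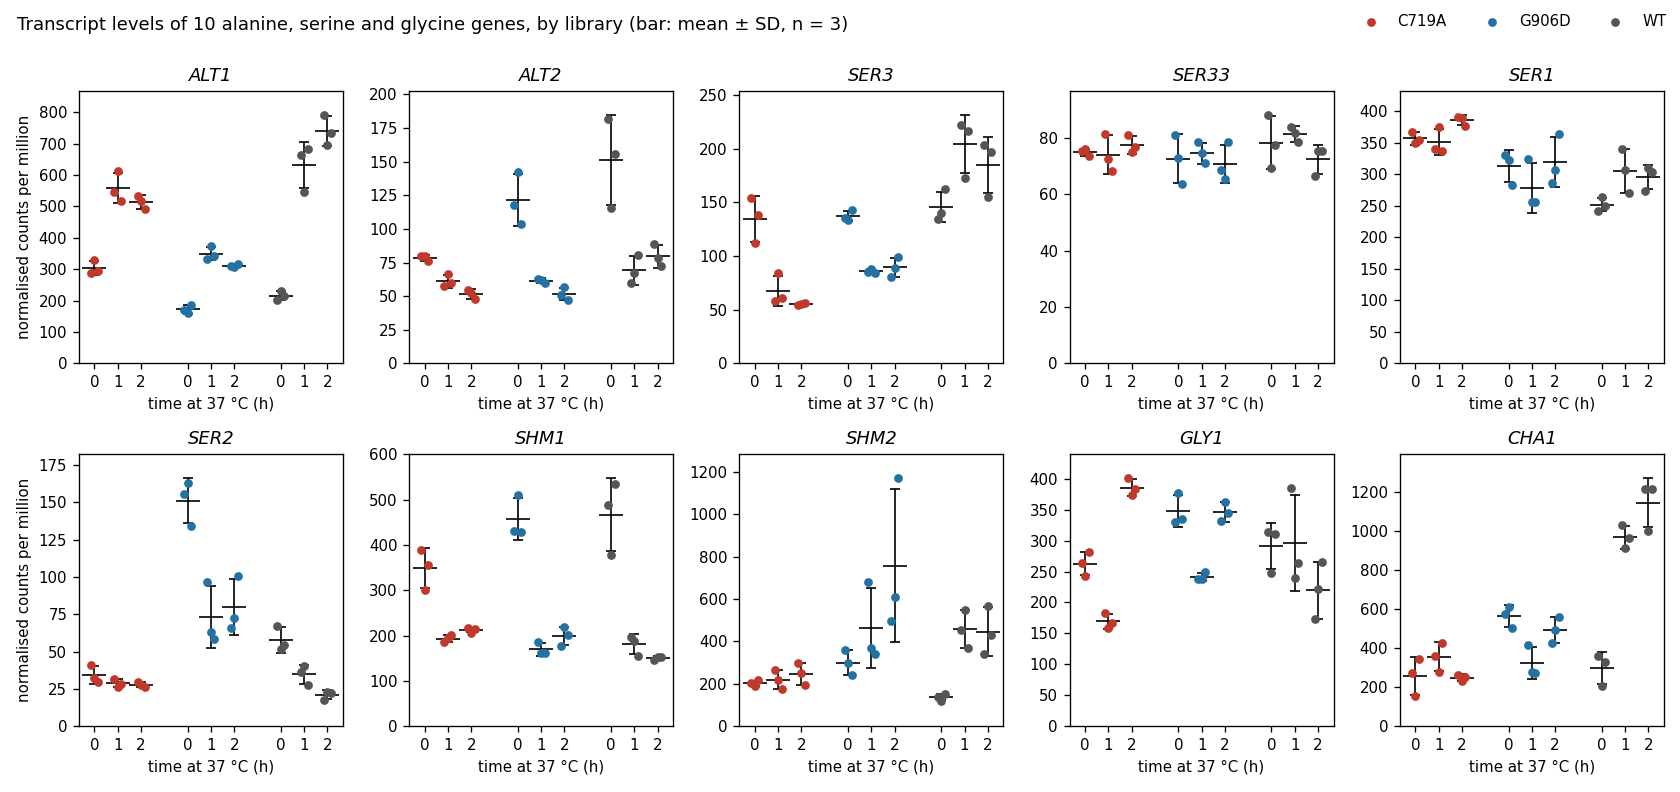
Each panel shows 1 gene, with normalised CPM on the vertical axis from 0 and the time at 37 °C (0, 1 and 2 h) on the horizontal axis, for C719A (red), G906D (blue) and WT (grey). Each point is 1 library, and the bars give the mean ± SD of 3 libraries. CHA1 was at 230 to 265 CPM in C719A and 426 to 559.7 CPM in G906D at 2 h, against 1003 to 1219 CPM in WT at 2 h, while SER33 lay between 63.8 and 87.9 CPM in all 27 libraries.

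Each mutant was compared with WT at the same time to ask which of these genes differ in strains that misedit or poorly charge alanine tRNA. At 2 h 8 of the 10 genes differed in C719A, 3 higher and 5 lower, where 56.5% of all genes tested differed. In G906D at 2 h it was also 8 of 10, 4 higher and 4 lower, against 65.1% of all genes. The median log2 fold change of the 10 genes at 2 h was -0.21 in C719A and 0.04 in G906D, and that of all genes was -0.03 in C719A and -0.01 in G906D. At 1 h 4 genes differed in C719A, all lower (35.8% of all genes), and 4 in G906D, 1 higher and 3 lower (31.2% of all genes). At 0 h 5 genes differed in C719A, 2 higher and 3 lower (53.7% of all genes), and 6 in G906D, 4 higher and 2 lower (64.1% of all genes). A gene is said to differ, rise or fall where the edgeR quasi-likelihood test gave an adjusted p under 0.05 (Benjamini-Hochberg over 6386 genes), and both mutants are set against the same WT libraries.

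**Figure D2:**
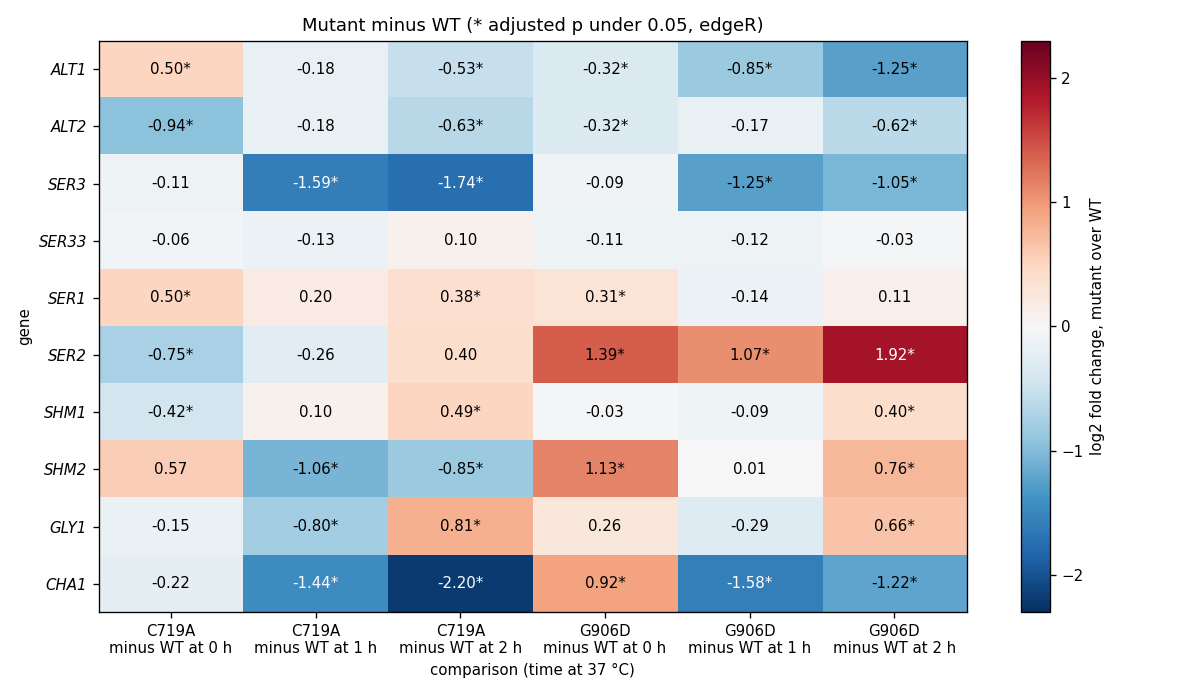
The grid gives the log2 fold change of each mutant over WT for the 10 genes (vertical) at 0, 1 and 2 h at 37 °C (horizontal), red for higher and blue for lower in the mutant, with an asterisk where the adjusted p was under 0.05. CHA1 and SER3 were lower in both mutants at 1 h and 2 h, SER2 was higher in G906D at all 3 times, and SER33 passed the threshold nowhere.

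CHA1 encodes the mitochondrial enzyme that breaks down serine and threonine to pyruvate or 2-oxobutyrate and ammonia. In C719A it was measured at 275, 154 and 343 CPM at 0 h, 362, 279 and 428 CPM at 1 h and 265, 230.4 and 255 CPM at 2 h. In G906D it was at 574, 614 and 505 CPM at 0 h, 418, 280.3 and 274 CPM at 1 h and 426, 496 and 559.7 CPM at 2 h. In WT it was at 359, 208 and 329 CPM at 0 h, 1030.0, 913 and 965 CPM at 1 h and 1218, 1003 and 1219 CPM at 2 h, and all heated WT libraries were above the unheated ones. From 0 h to 2 h its log2 fold change was -0.04 ± 0.22 (adjusted p = 0.882) in C719A, with a 95% interval of -0.48 to 0.39. It was -0.19 ± 0.22 (adjusted p = 0.45) in G906D, with an interval of -0.63 to 0.24. At 1 h C719A had 0.47 ± 0.22 (adjusted p = 0.0659), which passed the threshold under 7 of 17 alternatives, among them without 0 h library C (0.73, adjusted p = 0.00972), without 1 h library B (0.62, adjusted p = 0.0292) and with the replicate letter as a block (0.49, adjusted p = 0.03). In WT CHA1 rose, by 1.70 ± 0.23 (adjusted p = 7.51e-07) at 1 h and 1.94 ± 0.23 (adjusted p = 5.82e-08) at 2 h. The response to 2 h at 37 °C differed from that of WT by -1.98 ± 0.32 (adjusted p = 3.64e-05) in C719A and by -2.13 ± 0.32 (adjusted p = 4.77e-05) in G906D.

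Against WT at the same time, CHA1 in C719A had a log2 fold change of -1.44 ± 0.23 (adjusted p = 2.19e-05) at 1 h and -2.20 ± 0.23 (adjusted p = 2.52e-08) at 2 h, with no overlap of the libraries. In G906D it was -1.58 ± 0.23 (adjusted p = 4.34e-06) at 1 h and -1.22 ± 0.22 (adjusted p = 4.57e-05) at 2 h, again without overlap. Before heat CHA1 was higher in G906D, by 0.92 ± 0.22 (adjusted p = 0.00097), and passed no threshold in C719A, at -0.22 ± 0.22 (adjusted p = 0.427). CHA1 in C719A was lower than in G906D at 0 h, at -1.13 ± 0.22 (adjusted p = 0.000218), and at 2 h, at -0.98 ± 0.22 (adjusted p = 0.00102). At 1 h the difference passed no threshold, at 0.14 ± 0.22 (adjusted p = 0.673). In G906D the fall of CHA1 between 0 h and 1 h, -0.80 ± 0.22 (adjusted p = 0.00257), was lost when libraries were scaled by their totals alone (-0.31, adjusted p = 0.203). CHA4, the activator through which serine and threonine induce CHA1, was lower at 2 h, with log2 fold changes of -0.38 ± 0.07 (adjusted p = 0.000117) in C719A and -0.58 ± 0.07 (adjusted p = 3.25e-07) in G906D.

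The stretch from 250 bases before to 50 bases after the start of the CHA1 coding sequence, as the R64 assembly gives it, lies at chrIII:16831-17130 on the minus strand, and that of SER3 lies at chrV:322436-322735 on the plus strand. They are shown because these were the genes lower in both mutants at 1 h and 2 h, with the start codon in capitals.
CHA1: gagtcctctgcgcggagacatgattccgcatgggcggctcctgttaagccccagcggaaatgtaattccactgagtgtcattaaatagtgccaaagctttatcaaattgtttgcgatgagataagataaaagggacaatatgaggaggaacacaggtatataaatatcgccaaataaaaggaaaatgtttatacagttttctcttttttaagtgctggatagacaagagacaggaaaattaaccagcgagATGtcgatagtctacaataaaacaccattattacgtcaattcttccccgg
SER3: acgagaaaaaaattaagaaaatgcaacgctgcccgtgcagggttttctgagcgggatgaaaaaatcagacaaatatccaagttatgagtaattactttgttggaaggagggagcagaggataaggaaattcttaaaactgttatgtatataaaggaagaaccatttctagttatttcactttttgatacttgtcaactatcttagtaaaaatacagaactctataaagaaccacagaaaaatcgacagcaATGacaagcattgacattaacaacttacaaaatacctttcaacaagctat

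SER3 and SER33 encode isoenzymes of 3-phosphoglycerate dehydrogenase, the first step of serine synthesis. SER3 (chromosome V, 322686 to 324095) was measured at 54.2, 55.5 and 56.7 CPM in C719A at 2 h and 80.8, 88.6 and 98.8 CPM in G906D at 2 h, against 204, 155 and 196 CPM in WT at 2 h. All WT libraries stood above all mutant libraries, and the log2 fold change was -1.74 ± 0.13 (adjusted p = 1.14e-10) in C719A and -1.05 ± 0.13 (adjusted p = 2.21e-07) in G906D. At 1 h SER3 had 58.5, 83.8 and 61.1 CPM in C719A and 85.5, 88.0 and 84.4 CPM in G906D, against 222, 173 and 216 CPM in WT. The log2 fold changes were -1.59 ± 0.13 (adjusted p = 1.38e-09) in C719A and -1.25 ± 0.13 (adjusted p = 2.51e-08) in G906D. Before heat the strains overlapped, at 154, 112 and 138 CPM in C719A, 135, 133 and 143 CPM in G906D and 134, 140.4 and 162 CPM in WT. Between 0 h and 2 h SER3 moved in opposite directions. It fell by 1.28 ± 0.13 on the log2 scale in C719A (adjusted p = 1.36e-08) and by 0.62 ± 0.13 in G906D (adjusted p = 0.000201). It rose by 0.35 ± 0.13 (adjusted p = 0.0198) in WT. The WT rise at 2 h lost its call without WT 0 h library A or B or WT 2 h library A or C (adjusted p = 0.0566 to 0.0943). The G906D fall was -0.14 (adjusted p = 0.305) under scaling by totals alone. The difference between the responses passed the threshold in both mutants, at -1.62 ± 0.18 (adjusted p = 5.31e-07) in C719A and -0.96 ± 0.18 (adjusted p = 0.000531) in G906D.

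SER33 (chromosome IX, 221081 to 222490) had the narrowest range of the 10 genes. Its lowest library was at 63.8 CPM and its highest at 87.9 CPM, the 9 group means spanned 1.15-fold, and it differed in none of the 17 comparisons, with log2 fold changes of the mutants over WT between -0.13 and 0.10. The 95% interval that reached furthest from 0 among these 6 was that of C719A at 1 h, -0.31 to 0.05. Scaling by totals alone called SER33 in 9 of the 17 comparisons, at -0.45 (adjusted p = 0.000291) at 0 h and -0.26 (adjusted p = 0.036) at 1 h in G906D minus WT, and at up to 0.53 (adjusted p = 2.97e-05) on heating, in G906D at 1 h. SER3 and SER33 share 82.6% of their aligned coding bases, and 11 of the 1361 stretches of 50 bases in SER33 (0.8%) also occur in SER3, so that reads from the shared stretches could have been given to either gene.

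SER3 also overlaps SRG1 (chromosome V, 322212 to 322762, same strand) by 77 bases, and the SER3 promoter printed above lies wholly within SRG1. SRG1 is a noncoding RNA whose transcription across the SER3 promoter is known to repress SER3 when serine is plentiful. SRG1 was measured at 31.3, 19.2 and 28.6 CPM in C719A, 86.9, 80.6 and 71.3 CPM in G906D and 108, 36.4 and 65.5 CPM in WT at 0 h. At 2 h it was at 15.4, 12.2 and 15.8 CPM in C719A, 30.1, 25.8 and 29.8 CPM in G906D and 70.0, 54.6 and 65.5 CPM in WT. It was lower than in WT at all 3 times in C719A, at -1.42 ± 0.24 (adjusted p = 3.07e-05) at 0 h and -2.13 ± 0.25 (adjusted p = 1.27e-07) at 2 h. In G906D it was lower at 1 h, at -1.66 ± 0.24 (adjusted p = 4.4e-06), and at 2 h, at -1.15 ± 0.24 (adjusted p = 0.000163). At 1 h and 2 h SRG1 and SER3 were therefore both lower in both mutants. In G906D at 0 h SRG1 had a log2 fold change of 0.18 ± 0.23 (adjusted p = 0.501), which became 0.64 (adjusted p = 0.00706) without WT library A, the highest of the WT values. Whether the counting used strand and how reads in the 77 shared bases were assigned is not given in the sources used here.

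SER1 encodes phosphoserine transaminase, the next enzyme of the pathway, and its 9 group means spanned 1.53-fold. At 0 h it was measured at 368, 349 and 354 CPM in C719A and 332, 323 and 284 CPM in G906D, against 242, 264 and 250.1 CPM in WT, so that all mutant libraries were above all WT libraries. The log2 fold change was 0.50 ± 0.10 (adjusted p = 0.000251) in C719A and 0.31 ± 0.10 (adjusted p = 0.0104) in G906D. The G906D value became -0.03 (adjusted p = 0.811) under scaling by totals alone and 0.27 (adjusted p = 0.0503) without G906D library A. At 2 h SER1 was higher in C719A, by 0.38 ± 0.10 (adjusted p = 0.00261), and not in G906D, at 0.11 ± 0.10 (adjusted p = 0.352). The difference between the mutants at 2 h, 0.27 ± 0.10 (adjusted p = 0.0361), was lost when any of C719A libraries A, B and C or G906D libraries A and B was left out (adjusted p = 0.0572 to 0.172). The one at 1 h, 0.33 ± 0.10 (adjusted p = 0.0122), was lost without C719A library B or G906D library B or C (adjusted p = 0.0637 to 0.0717). Its rise in WT was 0.28 ± 0.10 (adjusted p = 0.0208) at 1 h and 0.23 ± 0.10 (adjusted p = 0.0475) at 2 h. Without WT 0 h library A or WT 1 h library A the first was lost, and without WT 0 h library A or C or WT 2 h library B or C the other was (adjusted p = 0.0684 to 0.136), as it was with DESeq2 (adjusted p = 0.0773).

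SER2, which encodes phosphoserine phosphatase, the last enzyme of the pathway, had the widest range of the 10 genes, with 9 group means that spanned 7.15-fold. At 0 h it was measured at 41.2, 32.2 and 29.9 CPM in C719A and 156, 163 and 134 CPM in G906D, against 67.5, 51.7 and 54.3 CPM in WT. At 2 h it was at 29.5, 27.7 and 26.3 CPM in C719A and 65.9, 72.6 and 101 CPM in G906D, against 17.8, 23.1 and 22.4 CPM in WT. The G906D libraries were above all others of their time. The log2 fold change of G906D over WT was 1.39 ± 0.18 (adjusted p = 5.01e-07) at 0 h, 1.07 ± 0.18 (adjusted p = 3.46e-05) at 1 h and 1.92 ± 0.19 (adjusted p = 4.47e-09) at 2 h. C719A was lower than WT at 0 h, at -0.75 ± 0.18 (adjusted p = 0.0013), and at 0.40 ± 0.19 (adjusted p = 0.0756) at 2 h it passed no threshold, although its 3 libraries lay above those of WT and DESeq2 called it (0.43, adjusted p = 0.0431). Between 0 h and 2 h C719A had -0.31 ± 0.19 (adjusted p = 0.146), and SER2 fell in G906D, at -0.92 ± 0.17 (adjusted p = 5.67e-05), and in WT, at -1.45 ± 0.19 (adjusted p = 2.02e-07). The C719A response differed from that of WT by 1.15 ± 0.26 (adjusted p = 0.00146). For G906D this difference had the same direction but passed no threshold, at 0.53 ± 0.25 (adjusted p = 0.131), with an unadjusted 95% interval of 0.04 to 1.03. It was called under 3 of 23 alternatives, among them scaling by totals alone (0.73, adjusted p = 0.028).

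SER2 lies on chromosome VII (911883 to 912812). The 557 tested genes of that chromosome had a median log2 fold change in G906D over WT of 0.91 at 0 h, 0.96 at 1 h and 0.95 at 2 h. The genes of the other chromosomes had medians of -0.09, -0.05 and -0.07. SER2 stood 0.48 above the chromosome's median at 0 h, 0.11 above it at 1 h and 0.97 above it at 2 h. Of the 557 genes, 102 had a larger fold change than SER2 at 0 h, 195 at 1 h and 50 at 2 h. In C719A over WT the chromosome's median was 0.03 at 0 h, -0.01 at 1 h and -0.01 at 2 h. The part of the chromosome-wide difference in the SER2 result was not tested. The 5 genes whose group means followed those of SER2 most closely, among 5742 compared over the 9 groups, were ANK1 (r = 0.98), KAP114 (r = 0.98), PFK1 (r = 0.97), ERG26 (r = 0.97) and KAP122 (r = 0.97), and all lie on chromosome VII. PFK1, the alpha subunit of phosphofructokinase, averaged 1087 CPM in G906D at 2 h, against 487 CPM in WT at 2 h. These 9 points share libraries and strains, and no p is given for them.

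**Figure D3:**
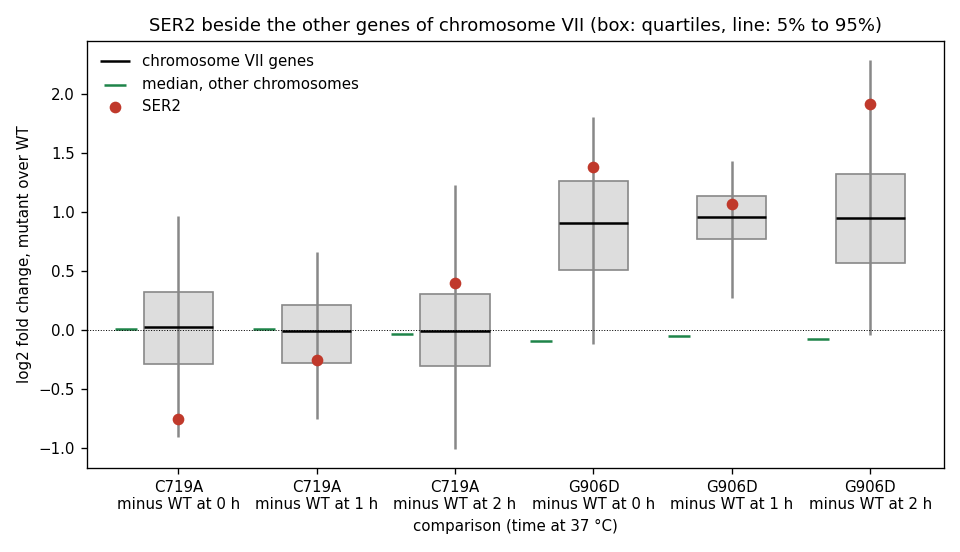
Red points give the log2 fold change of SER2 in each mutant over WT at 0, 1 and 2 h at 37 °C. Grey boxes and lines give the quartiles and the 5% to 95% range of 557 genes of chromosome VII, black bars their median, and green bars the median of the genes on other chromosomes. In the 3 comparisons of G906D the chromosome VII median lies at 0.91 to 0.96 and SER2 lies above it.

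SHM1 and SHM2 encode the mitochondrial and the cytosolic serine hydroxymethyltransferase, which interconvert serine and glycine and feed one-carbon units into folate. From 0 h to 2 h in C719A SHM1 fell, at -0.72 ± 0.12 (adjusted p = 9.34e-06), and SHM2 had 0.29 ± 0.27 (adjusted p = 0.351), with an interval of -0.24 to 0.82. In G906D the response was -1.20 ± 0.12 (adjusted p = 3.88e-09) for SHM1 and 1.34 ± 0.27 (adjusted p = 0.00014) for SHM2. In WT SHM1 was measured at 488, 379 and 535 CPM at 0 h, 198, 189 and 156 CPM at 1 h and 146, 154 and 154 CPM at 2 h. SHM2 in WT was at 139, 121 and 150.3 CPM at 0 h, 456, 549 and 370.1 CPM at 1 h and 342, 568 and 430.0 CPM at 2 h. The 0 h libraries of WT did not overlap with the later ones for either gene, and from 0 h to 2 h SHM1 fell, at -1.63 ± 0.12 (adjusted p = 3.12e-11), while SHM2 rose, by 1.71 ± 0.28 (adjusted p = 7.01e-06). Both responses of C719A differed from those of WT, by 0.91 ± 0.16 (adjusted p = 0.000137) for SHM1 and -1.42 ± 0.38 (adjusted p = 0.00564) for SHM2. In G906D neither difference from the WT response passed the threshold after adjustment (adjusted p = 0.0597 for SHM1 and 0.515 for SHM2), and the unadjusted 95% intervals were 0.11 to 0.75 for SHM1 and -1.12 to 0.38 for SHM2. The SHM1 difference passed it under 9 of 23 alternatives, among them RLE size factors (0.45, adjusted p = 0.0458), DESeq2 (adjusted p = 0.032) and leaving out WT 0 h library B (0.56, adjusted p = 0.00794), G906D 0 h library B (0.52, adjusted p = 0.0335) or G906D 2 h library A (0.50, adjusted p = 0.037). The rise of SHM2 in G906D was 0.88 at 2 h without 2 h library C. At 1 h, 0.62 ± 0.27 (adjusted p = 0.0421), it was lost without 0 h library B or C or 1 h library A (0.22 to 0.62, adjusted p = 0.0836 to 0.461) and with DESeq2 (adjusted p = 0.0698).

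At 2 h SHM1 was measured at 216, 206 and 215 CPM in C719A and 178, 219 and 201 CPM in G906D, both without overlap with WT. The log2 fold change over WT was 0.49 ± 0.12 (adjusted p = 0.000883) in C719A and 0.40 ± 0.12 (adjusted p = 0.00428) in G906D. The G906D call was lost under scaling by totals alone (0.26, adjusted p = 0.0525). Before heat SHM1 was lower in C719A than in WT, at -0.42 ± 0.12 (adjusted p = 0.00372), a call that was lost when the pair of groups was fitted on its own (adjusted p = 0.0635).

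SHM2 at 2 h was measured at 297, 250 and 196 CPM in C719A and 494, 610.3 and 1169 CPM in G906D, so that C719A lay below all WT libraries and G906D overlapped with WT. The log2 fold change over WT was -0.85 ± 0.27 (adjusted p = 0.0097) in C719A and 0.76 ± 0.27 (adjusted p = 0.0157) in G906D. Single libraries decided both. The C719A call was lost without WT library B (-0.64, adjusted p = 0.0664) or C719A library C (-0.71, adjusted p = 0.058). The G906D call was lost without G906D library C (0.31, adjusted p = 0.302) or WT library A (0.60, adjusted p = 0.0855), and with limma on log2(FPKM + 1) (0.55, adjusted p = 0.0793). At 1 h SHM2 was lower in C719A, at 265, 218 and 176 CPM, and the log2 fold change was -1.06 ± 0.27 (adjusted p = 0.0037). G906D at 1 h had 678, 367 and 342 CPM and a log2 fold change over WT of 0.01 ± 0.27 (adjusted p = 0.978). At 0 h SHM2 was already higher in G906D, with 358, 299 and 243 CPM and a log2 fold change of 1.13 ± 0.27 (adjusted p = 0.0009). In C719A it passed no threshold, at 0.57 ± 0.27 (adjusted p = 0.0815), although those libraries did not overlap with WT and the pair of groups fitted alone called it (0.56, adjusted p = 0.00472). SHM2 in C719A was lower than in G906D, at -1.07 ± 0.27 (adjusted p = 0.00278) at 1 h and -1.61 ± 0.28 (adjusted p = 3.75e-05) at 2 h. The 1 h value was -0.67 (adjusted p = 0.0483) without G906D library A.

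GLY1 encodes threonine aldolase, which splits threonine into glycine and acetaldehyde. In C719A it was measured at 264, 243 and 281 CPM at 0 h, 183, 159 and 166 CPM at 1 h and 401, 373 and 384 CPM at 2 h, a fall followed by the highest level of any group. In G906D it had 330.0, 377 and 335 CPM at 0 h, 238, 238 and 248 CPM at 1 h and 332, 363 and 344 CPM at 2 h. In WT it had 314, 248 and 311 CPM at 0 h, 385, 240.0 and 264 CPM at 1 h and 173, 222 and 265 CPM at 2 h. Against WT, GLY1 thus turned from lower to higher in C719A, with a log2 fold change of -0.80 ± 0.14 (adjusted p = 9.29e-05) at 1 h and 0.81 ± 0.14 (adjusted p = 3.05e-05) at 2 h, both without overlap. In G906D it passed no threshold at 1 h, at -0.29 ± 0.14 (adjusted p = 0.114), or at -0.43 (adjusted p = 0.0294) without WT library B, and was higher at 2 h, by 0.66 ± 0.14 (adjusted p = 0.000251). The response from 0 h to 2 h was 0.55 ± 0.14 (adjusted p = 0.00132) in C719A and -0.41 ± 0.14 (adjusted p = 0.013) in WT, and these differed by 0.96 ± 0.20 (adjusted p = 0.000591). In G906D the response was -0.004 ± 0.14 (adjusted p = 0.984). Its difference from that of WT, 0.40 ± 0.20 (adjusted p = 0.146), passed no threshold, with an unadjusted 95% interval of 0.01 to 0.79. That difference was called under 4 of 23 alternatives. The WT fall was lost without WT 0 h library A (-0.35, adjusted p = 0.0557) or WT 2 h library A (-0.26, adjusted p = 0.115) and under scaling by totals alone (-0.12, adjusted p = 0.452). The G906D fall at 1 h, -0.52 ± 0.14 (adjusted p = 0.00184), was -0.03 (adjusted p = 0.857) under that scaling.

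ALT1 encodes the alanine transaminase that makes alanine from pyruvate and glutamate, and ALT2 encodes its paralog, which RefSeq annotates as catalytically inactive. ALT1 rose on heating in all 3 strains. It was measured at 289, 330.2 and 295 CPM at 0 h, 547, 612 and 517 CPM at 1 h and 534, 518 and 491 CPM at 2 h in C719A. In G906D it had 169, 160.3 and 187 CPM at 0 h, 334, 373 and 343 CPM at 1 h and 309.9, 307 and 316 CPM at 2 h. In WT it had 202, 229.8 and 214 CPM at 0 h, 664, 547 and 683 CPM at 1 h and 790.1, 697 and 735 CPM at 2 h. The rise to 2 h was 0.76 ± 0.10 (adjusted p = 2.6e-07) in C719A, 0.85 ± 0.10 (adjusted p = 3.43e-08) in G906D and 1.78 ± 0.10 (adjusted p = 7.05e-13) in WT. Both mutants rose less than WT, at -1.03 ± 0.13 (adjusted p = 3.16e-06) in C719A and -0.93 ± 0.13 (adjusted p = 3.9e-05) in G906D. The groups did not overlap at 2 h, when C719A was at -0.53 ± 0.09 (adjusted p = 4.78e-05) and G906D at -1.25 ± 0.10 (adjusted p = 7.4e-11) against WT. At 0 h C719A was higher than WT, by 0.50 ± 0.10 (adjusted p = 0.000122), and G906D was lower, at -0.32 ± 0.10 (adjusted p = 0.00477). C719A was above G906D at all 3 times, by 0.82 ± 0.10 (adjusted p = 1.51e-07) at 0 h, 0.68 ± 0.10 (adjusted p = 2.65e-06) at 1 h and 0.73 ± 0.10 (adjusted p = 9.29e-07) at 2 h.

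ALT2 fell where ALT1 rose. In C719A it was measured at 79.7, 79.9 and 76.0 CPM at 0 h and 54.7, 52.1 and 47.5 CPM at 2 h. G906D had 118, 142 and 104 CPM at 0 h and 51.1, 56.6 and 47.5 CPM at 2 h. WT had 182, 116 and 155 CPM at 0 h and 89.0, 78.1 and 72.1 CPM at 2 h, above C719A at both times and overlapping with G906D at 0 h. Against WT, ALT2 was lower in C719A at 0 h, at -0.94 ± 0.13 (adjusted p = 2.78e-06), and at 2 h, at -0.63 ± 0.13 (adjusted p = 0.00027). At 2 h it was also lower in G906D, at -0.62 ± 0.13 (adjusted p = 0.000237). The value of G906D at 0 h, -0.32 ± 0.13 (adjusted p = 0.0372), came with overlap. It was lost without WT library A or C or G906D library A or C (adjusted p = 0.09 to 0.303) or without the genes of chromosome VII (adjusted p = 0.0813), and became -0.47 without WT library B. The heat response of ALT2 to 2 h was -0.61 ± 0.13 (adjusted p = 0.000311) in C719A, -1.23 ± 0.13 (adjusted p = 2.03e-08) in G906D and -0.92 ± 0.13 (adjusted p = 1.02e-06) in WT. Neither mutant's response passed the test of a difference from WT, with intervals of -0.05 to 0.68 for C719A and -0.67 to 0.06 for G906D. The C719A difference was 0.47 (adjusted p = 0.0259) without WT 0 h library B. The C719A fall was -0.29 (adjusted p = 0.0593) under scaling by totals alone. Its fall at 1 h in C719A, -0.36 ± 0.13 (adjusted p = 0.0196), was lost without C719A 1 h library A or C (adjusted p = 0.0725 and 0.0559) and was -0.10 (adjusted p = 0.537) under that scaling.

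Counted over the 10 genes, heating for 1 h changed 5 in C719A, 1 higher and 4 lower (66.0% of all genes), 8 in G906D, 2 higher and 6 lower (71.4%), and 8 in WT, 5 higher and 3 lower (61.0%). Heating for 2 h changed 5 in C719A, 2 higher and 3 lower (67.1%), 6 in G906D, 2 higher and 4 lower (67.0%), and 9 in WT, 5 higher and 4 lower (69.6%). The genes that rose in WT at 2 h were ALT1, SER1, SER3, SHM2 and CHA1. Of these ALT1 rose in C719A, and ALT1 and SHM2 rose in G906D. For SER1 this is a difference in calls only. Its response did not pass the test of a difference from WT in C719A (-0.12 ± 0.14, adjusted p = 0.538) or G906D (-0.20 ± 0.14, adjusted p = 0.332). The WT rise of SER1 at 2 h lost its call under 11 of 17 alternatives. Under scaling by totals alone SER1 rose in C719A (0.44, adjusted p = 0.000309) and G906D (0.51, adjusted p = 4.66e-05). The response to 2 h differed from that of WT for 7 of the 10 genes in C719A, 3 higher and 4 lower, where it differed for 36.7% of all genes. In G906D it differed for 3 of the 10, all lower, where it differed for 23.3% of all genes. The count of 3 leaves out SHM1, at an adjusted p of 0.0597. The 3 genes in G906D were ALT1, SER3 and CHA1, which were also among the 4 lower ones in C719A, together with SHM2, and the mutants share the WT libraries in these comparisons. Scaling by totals alone moved the median log2 fold change of all genes from 0 h to 2 h by 0.32 in C719A, 0.48 in G906D and 0.28 in WT, so all heat responses are relative to the median gene.

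**Figure D4:**
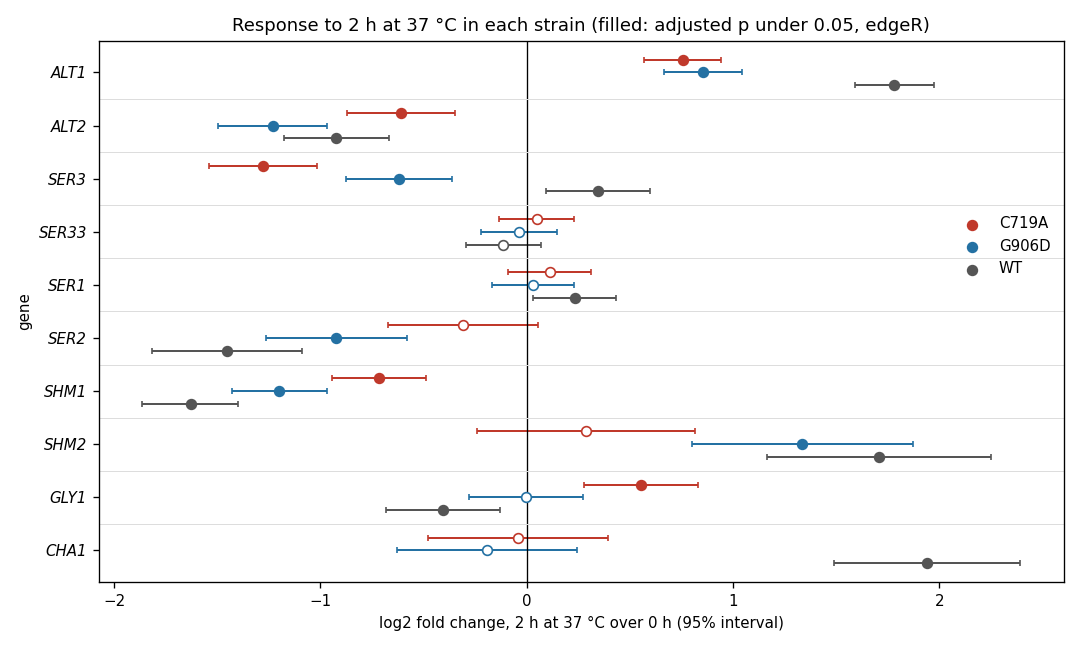
Points give the log2 fold change from 0 h to 2 h at 37 °C for each of the 10 genes in C719A (red), G906D (blue) and WT (grey), and lines give the approximate 95% interval. Filled points passed an adjusted p of 0.05. CHA1 rose by 1.94 in WT with the mutants near 0, and SER3 lies below 0 in both mutants and above 0 in WT.

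C719A and G906D were also set against each other, since they carry different defects of AlaRS. Of the 10 genes, 6 differed at 0 h, 1 higher and 5 lower in C719A (41.8% of all genes), 6 at 1 h, 2 higher and 4 lower (37.3%), and 6 at 2 h, 2 higher and 4 lower (39.5%). Those lower in C719A at 2 h were SER2, SER3, SHM2 and CHA1, and those higher were ALT1 and SER1. SER3 differed by -0.69 ± 0.13 (adjusted p = 0.000162) at 2 h. Its difference at 1 h, -0.34 ± 0.13 (adjusted p = 0.0429), was lost without any one of C719A libraries A and C or G906D libraries A, B and C (adjusted p = 0.0741 to 0.197) and was -0.52 without C719A library B. GLY1 was lower in C719A at 0 h, at -0.40 ± 0.14 (adjusted p = 0.0231), and at 1 h, at -0.51 ± 0.14 (adjusted p = 0.00571), and SHM1 was lower at 0 h, at -0.39 ± 0.12 (adjusted p = 0.00829). The 0 h differences of GLY1 and SHM1 were lost without library B of either strain (adjusted p = 0.0624 to 0.0978) and under scaling by totals alone (-0.11 for GLY1 and -0.10 for SHM1). The widest difference was that of SER2, -2.13 ± 0.18 (adjusted p = 8.74e-10) at 0 h and -1.52 ± 0.18 (adjusted p = 2.36e-07) at 2 h, on the chromosome described above.

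Within a library the ratio of paralogs in FPKM does not depend on the scaling between libraries. SER3 was 1.80 ± 0.29 times SER33 in C719A, 1.91 ± 0.30 times in G906D and 1.88 ± 0.31 times in WT at 0 h (SD, n = 3 each). At 2 h it was 0.717 ± 0.042 times SER33 in C719A and 1.27 ± 0.09 times in G906D, against 2.58 ± 0.50 times in WT. SER3 was thus below SER33 in all 3 C719A libraries at 2 h and above it in all others of that time. SHM2 was 0.611 ± 0.062 times SHM1 in C719A, 0.690 ± 0.154 times in G906D and 0.309 ± 0.023 times in WT at 0 h. At 2 h it was 1.22 ± 0.25 times SHM1 in C719A, 3.97 ± 1.83 times in G906D and 3.08 ± 0.72 times in WT. ALT1 was 3.32 ± 0.22 times ALT2 in C719A, 1.25 ± 0.29 times in G906D and 1.28 ± 0.38 times in WT at 0 h. At 2 h it was 8.58 ± 0.25 times ALT2 in C719A, 5.18 ± 0.53 times in G906D and 7.99 ± 0.64 times in WT. The coding sequences of SHM1 and SHM2 are 65.2% identical and those of ALT1 and ALT2 60.1%, and neither pair shares a stretch of 50 bases.

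**Figure D5:**
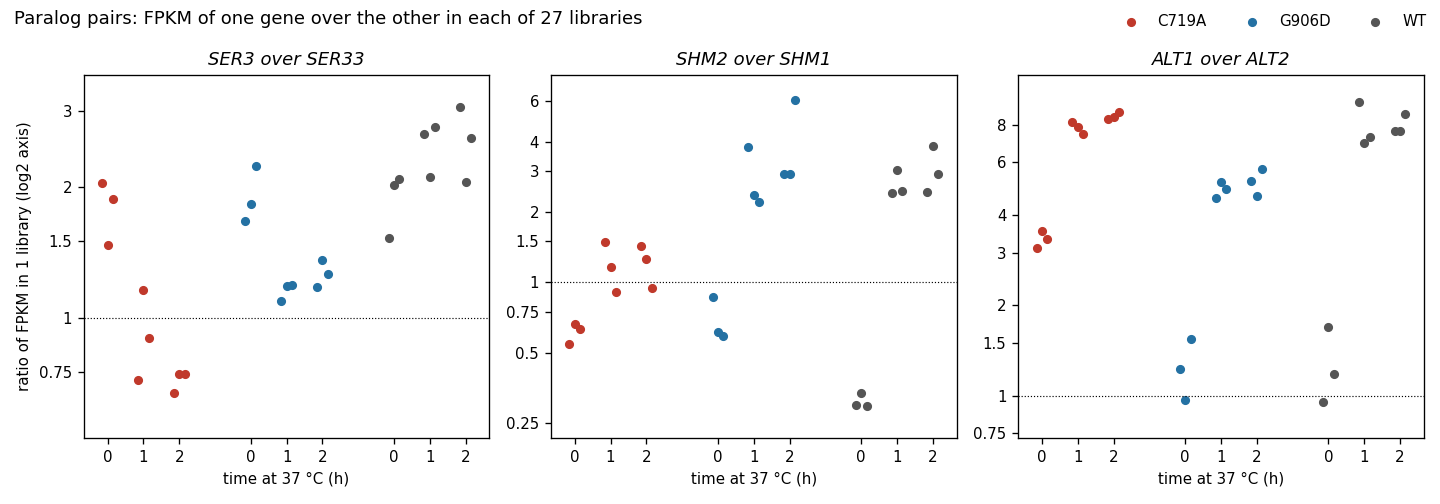
Each point is the ratio of FPKM of the named paralogs in 1 library, on a log2 axis, by strain and time at 37 °C (0, 1 and 2 h) for C719A (red), G906D (blue) and WT (grey). SER3 over SER33 lies below 1 in the 3 C719A libraries at 2 h (0.669 to 0.742) and between 2.06 and 3.07 in WT, and ALT1 over ALT2 averages 3.32 in C719A at 0 h, against 1.28 in WT.

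Over the 9 group means the 10 genes did not move as a block. The largest positive correlations of log2 CPM were between ALT2 and SHM1 (r = 0.79) and between SER3 and CHA1 (r = 0.66), and the largest negative ones between ALT1 and SHM1 (r = -0.85) and between ALT1 and SER2 (r = -0.85). Over the 27 libraries the same pairs had r = 0.76, 0.63, -0.84 and -0.84. These are descriptions of 9 points that share strains and a common heat response.

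Gcn4, the activator of amino acid synthesis genes in starved yeast, binds the core TGACTC, which is GAGTCA on the opposite strand. The same core is that of Bas1, whose RNA is given below, so a site does not tell Gcn4 from Bas1. The stretch from 250 bases before to 50 bases after the start of each coding sequence was searched on both strands. The core was present in 4 of the 10 genes and in 479 of all 6001 protein-coding genes with such a stretch in R64 (8.0%). The sites of SER1 (chrXV:679153-679198, plus strand), SER2 (chrVII:911708-911753, plus strand), SER33 (chrIX:222619-222664, minus strand) and SHM2 (chrXII:259603-259648, minus strand) are given here on the strand of the gene, with the core in capitals, because these genes did not behave alike. Their cores begin 184, 155, 154 and 227 bases before the start codon.
SER1: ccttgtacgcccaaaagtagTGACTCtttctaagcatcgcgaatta
SER2: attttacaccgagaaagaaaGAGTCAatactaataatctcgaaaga
SER33: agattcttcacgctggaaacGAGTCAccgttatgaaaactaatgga
SHM2: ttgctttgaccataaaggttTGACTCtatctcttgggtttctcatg

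GCN4 RNA was higher than in WT at 0 h, by 0.77 ± 0.14 (adjusted p = 8.55e-05) in C719A and 1.03 ± 0.14 (adjusted p = 1.67e-06) in G906D, and at 2 h, by 0.95 ± 0.14 (adjusted p = 5.37e-06) in C719A and 1.21 ± 0.14 (adjusted p = 1.24e-07) in G906D. At 1 h it passed no threshold, at 0.33 ± 0.14 (adjusted p = 0.0756) in C719A and 0.31 ± 0.14 (adjusted p = 0.1) in G906D, and it passed it in C719A with DESeq2 (0.35, adjusted p = 0.0346) or without C719A library B (0.43, adjusted p = 0.0359) and in G906D without G906D library C (0.42, adjusted p = 0.0421). Of the 4 genes with a core, SER1 was higher at 0 h in both mutants, with the G906D value near 0 under scaling by totals alone as given above, and at 2 h it was higher in C719A alone past the threshold. SHM2 was higher in G906D at 0 h and 2 h and lower in C719A at 1 h and 2 h, and both 2 h calls were lost without single libraries. SER2 was higher in G906D at all 3 times and lower in C719A at 0 h, and SER33 passed the threshold at no time. As given above, SER2 lies on chromosome VII, whose genes as a whole were higher in G906D. CHA1, SER3, GLY1, ALT1, ALT2 and SHM1 had no core in the stretch. The stress response element AGGGG, which is CCCCT on the opposite strand, was present in 1 of the 10, SHM1, and in 21.6% of all genes. SHM1 fell on heating in all 3 strains.

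Genes that make or use the same amino acids were followed as 6 lists with 45 tested genes in all. At 2 h 21 of the 45 were higher and 13 lower in C719A, where 27.5% of all genes were higher and 28.9% lower, and 24 were higher and 13 lower in G906D, where 31.9% of all genes were higher and 33.2% lower. Threonine is the substrate of GLY1, and of 7 genes of the threonine pathway and of the glyoxylate route to glycine 6 were higher and 1 lower in either mutant, with a median log2 fold change of 1.23 in C719A and 1.00 in G906D. HOM2, aspartate semialdehyde dehydrogenase, was at 1.97 ± 0.12 (adjusted p = 1.6e-12) in C719A and 1.5 ± 0.12 (adjusted p = 7.85e-11) in G906D. HOM3, aspartate kinase, was at 1.79 ± 0.13 (adjusted p = 3.53e-11) in C719A and 1.11 ± 0.13 (adjusted p = 6.39e-08) in G906D. AGX1, which makes glycine from glyoxylate, was the lower one, at -0.32 ± 0.14 (adjusted p = 0.047) in C719A and -0.57 ± 0.14 (adjusted p = 0.000775) in G906D. The C719A value of AGX1 was lost without WT library A (-0.13, adjusted p = 0.433) or C719A library A or C (adjusted p = 0.0873 and 0.176), and with DESeq2 (adjusted p = 0.0788). Among the 6 higher genes, the C719A call of HOM6 was lost without WT library B or C or C719A library A (adjusted p = 0.0576 to 0.106).

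Of 16 genes of glycine cleavage and folate, 6 were higher and 6 lower in C719A and 9 higher and 2 lower in G906D. ADE3, MET13 and FOL2 of this list lie on chromosome VII, whose median in G906D over WT was 0.95. The higher G906D calls of DFR1 and FOL3 were lost under scaling by totals alone (adjusted p = 0.352 and 0.222). MTD1 and MET7 gained a higher call in G906D without the genes of chromosome VII (adjusted p = 0.0404 and 0.0134). MTD1 also gained it without G906D library A or B (adjusted p = 0.00741 and 0.0294). MET7 also gained it with RLE size factors (adjusted p = 0.0316), with DESeq2 (adjusted p = 0.0261) and without WT library C (adjusted p = 0.0421). The lower C719A calls of GCV1 and GCV2 were lost without WT library B (adjusted p = 0.0871 and 0.0518). GCV3, a subunit of the glycine cleavage complex, was lower in C719A, at -0.58 ± 0.15 (adjusted p = 0.00164), and higher in G906D, at 1.08 ± 0.15 (adjusted p = 7.63e-07). In C719A FOL2, the first enzyme of folate synthesis, was higher at 0.84 ± 0.08 (adjusted p = 1.15e-08), as was FOL1 at 0.84 ± 0.10 (adjusted p = 1.19e-07). MTD1, which oxidizes a one-carbon folate, was lower at -0.80 ± 0.25 (adjusted p = 0.00912). In G906D FOL2 was at 1.58 ± 0.09 (adjusted p = 2.59e-13) and the methylenetetrahydrofolate reductase gene MET12 at -0.46 ± 0.11 (adjusted p = 0.00071). LPD1, a subunit that the complex shares with pyruvate dehydrogenase, was at -0.19 ± 0.08 (adjusted p = 0.0322) in G906D. The LPD1 call was lost without WT library A or C or G906D library A or B (adjusted p = 0.0521 to 0.174) and without the genes of chromosome VII (adjusted p = 0.148).

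Of 5 genes of enzymes that consume serine, 3 were higher and 1 lower in either mutant. TRP5, tryptophan synthase, was at 1.92 ± 0.10 (adjusted p = 1.04e-13) in C719A and 2.21 ± 0.10 (adjusted p = 1.86e-14) in G906D. CYS4, cystathionine beta-synthase, was at 0.41 ± 0.11 (adjusted p = 0.00183) in C719A and a 2.64-fold higher level in G906D (adjusted p = 7.97e-11). CHO1, phosphatidylserine synthase, was lower at -0.71 ± 0.10 (adjusted p = 1.65e-06) in C719A and -0.63 ± 0.10 (adjusted p = 5.96e-06) in G906D. FOL2, CYS4 and TRP5 lie on chromosome VII, like SER2. Of 5 permease genes 1 was higher and 1 lower in C719A, and 1 was higher and 3 lower in G906D. DIP5, a permease of acidic amino acids that also carries serine, alanine and glycine, was lower at -1.55 ± 0.26 (adjusted p = 1.58e-05) in C719A and -1.46 ± 0.26 (adjusted p = 2.31e-05) in G906D. AGP1, a broad amino acid permease, was higher at 0.79 ± 0.11 (adjusted p = 2.78e-06) in C719A and 0.63 ± 0.11 (adjusted p = 4.12e-05) in G906D. GNP1, another permease, was lower in G906D, at -0.57 ± 0.17 (adjusted p = 0.00601).

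Of 7 genes for charging and proofreading the tRNAs of alanine, serine and glycine, 3 were higher and 2 lower in C719A and 3 higher and 3 lower in G906D. Those higher in C719A include ALA1 itself, given above, whose allele is described as carried on a plasmid. SES1, cytosolic seryl-tRNA synthetase, was higher at 0.52 ± 0.10 (adjusted p = 9.84e-05) in C719A and 0.64 ± 0.10 (adjusted p = 5.13e-06) in G906D, and GRS1, glycyl-tRNA synthetase, was higher in G906D, at 0.53 ± 0.10 (adjusted p = 5.93e-05). DIA4, the mitochondrial seryl-tRNA synthetase, was lower at -0.90 ± 0.09 (adjusted p = 2.32e-08) in C719A and -0.57 ± 0.09 (adjusted p = 1.1e-05) in G906D. GRS2, the other glycyl-tRNA synthetase gene, was lower at -0.42 ± 0.07 (adjusted p = 1.91e-05) in C719A and -0.52 ± 0.07 (adjusted p = 6.68e-07) in G906D. YNL040W, which encodes AlaX, was higher in C719A, at 0.48 ± 0.08 (adjusted p = 1.28e-05), and lower in G906D, at -0.20 ± 0.08 (adjusted p = 0.031). The G906D value of YNL040W was lost without WT library B or C or G906D library A or C (adjusted p = 0.0705 to 0.0896) and with DESeq2 (adjusted p = 0.066). Of the 5 regulators, GCN4 is given above, and CHA4 and SRG1 were lower in both mutants. BAS1, an activator of purine and one-carbon genes, was higher at 1.04 ± 0.09 (adjusted p = 2.19e-09) in C719A and 0.50 ± 0.09 (adjusted p = 5.71e-05) in G906D.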

How the data were processed

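Poly(A) RNA was sequenced from 27 libraries, 3 for each of 3 strains at 3 times. The authors deposited read counts per gene and FPKM values, made from reads aligned with TopHat2 and Bowtie2 per the submitters' processing notes. The counting tool, its treatment of strand and shared reads, the genome build and the annotation are not given in the sources used here. The deposited FPKM values are counts divided by gene length and by the total count of the library, and 95.4% of 5900 gene lengths recovered from them were within 0.1% of those of R64. In all 6045 gene IDs matched R64, and 4 lines held no data. Total counts were 14471528 to 23057641 per library, with a median of 17523615.

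Counts were tested with edgeR 4.0.16 (R 4.3.3) by the quasi-likelihood test, 1 model over the 9 groups, with TMM scaling (factors 0.719 to 1.15), a minimum count of 10 in filterByExpr, 6386 genes and a common dispersion of 0.0125. Adjusted p-values are Benjamini-Hochberg values over all genes tested, with a threshold of 0.05. Alternatives were RLE size factors, library size alone, leaving out chromosome VII (5830 genes), at least 10 counts in every library (5906 genes), no filter (6774 genes), DESeq2 1.42.0, limma 3.58.1 on log2(FPKM + 1) and log2(FPKM + 0.1), each pair of groups alone, the replicate letter as a block, and each library left out. Plotting used matplotlib 3.10.9 under Python 3.11.15, with pandas 2.3.3 for the tables, and sequences came from RefSeq R64.

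The 10 genes and all lists were chosen with earlier results of these data known. All 10 genes were named. Of the lists, ALA1, YNL040W and GCN4 were always named, with up to 2 genes that rose and 2 that fell per list in each mutant at 2 h, by the size of the log2 fold change. SRG1 at 0 h and 1 h, and genes given for the mutant in which they were outside this rule, were chosen after their values were seen. So were ADE3, MET13, DFR1, FOL3, MET7, GCV1, GCV2 and HOM6. For the gene with the widest range, the 5 genes with the highest r over the 9 groups were named, leaving out genes whose average log2 CPM was under 2.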

Additional observations from a re-analysis of the deposited data

Results flagged for a closer look

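The response to 2 h at 37 °C differed between a mutant and WT for 7 of the 10 genes in C719A and 3 in G906D, by edgeR's test of the difference between the responses. By the same test it differed for 36.7% of all genes in C719A and 23.3% in G906D. In C719A the log2 response minus that of WT was -1.03 for ALT1, 1.15 for SER2, -1.62 for SER3, 0.91 for SHM1, -1.42 for SHM2, 0.96 for GLY1 and -1.98 for CHA1. In G906D it was -0.93 for ALT1, -0.96 for SER3 and -2.13 for CHA1. Both sets of differences use the same WT libraries.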

How the results depend on the processing

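Over 170 results of the 10 genes, 104 passed the threshold, and of their 1775 alternatives 1676 kept the direction and the call, 96 lost the call and 3 changed sign. Of 1145 alternatives of the other results, 78 passed the threshold in the same direction and 15 in the opposite one, and 89 changed sign without passing it. The sign changes that involved a call came with library size alone and with limma on log2(FPKM + 1) and log2(FPKM + 0.1), given in that order. SER1 in G906D minus WT at 0 h became -0.027, -0.029 and -0.030. From 0 h to 1 h in C719A, SER1 became 0.241, 0.239 and 0.2397 and SER33 0.2501, 0.241 and 0.246. From 0 h to 1 h in G906D, SER1 became 0.324, 0.318 and 0.319. From 0 h to 2 h in G906D, SER33 became 0.442, 0.436 and 0.445 and GLY1 0.478, 0.476 and 0.478. Under these 3 settings 7 of the 10 genes, in place of 4, differed between G906D and WT at 1 h, and 6, in place of 3, differed in their 2 h response between G906D and WT. With the main settings 31.2% and 23.3% of all genes differed in these comparisons. The share of all genes under each alternative is not given here, so no such count is read as particular to the 10 genes. Under library size alone the all-gene median shifted by -0.13 in G906D minus WT at 1 h and by 0.20 in that 2 h response. It shifted by -0.34 in G906D minus WT at 0 h and by 0.28 to 0.48 from 0 h to 2 h. Without single libraries, the count for heating WT for 2 h was 6 to 8 in place of 9, and that for C719A minus G906D was 4 to 6 at 0 h and 4 to 5 at 1 h, in place of 6. The replicate letters were not taken as pairs, because that needed a correlation of deviations over 0.1 in every pair, and the lowest of the same letter and strain was -0.707. It was over 0.1 in 17 of 27 pairs of the same letter and strain (median 0.156), against 20 of 54 pairs of other letters in the same strain (median -0.079), and in 29 of 81 pairs of the same letter in different strains. With the letter as a replicate block the count was 6 in place of 5 for C719A at 1 h, 7 in place of 8 for G906D at 1 h and 8 in place of 9 for WT at 2 h, all against 0 h, and was unmoved for the other 14 comparisons. The lowest count of any of the 10 genes was 352, for SER2, so depth limited none of them to a few reads.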
